A study of Mus musculus with 12 samples.

Results

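The 37 genes described here are interferon-stimulated genes, chosen as a list of mouse gene symbols and matched to the NCBI Gene IDs of the count table. The rule for the list used no values, but the list was drawn up with earlier results of these data known. They are 37 of the 27179 genes listed, and all 37 were among the 15502 genes with enough counts to be tested. RNA-seq counts came from 12 tibialis anterior (TA) muscles of 6 male wild-type C57BL/6N mice, which had been bought at 6 to 8 weeks of age. In each mouse, the TA of one leg received 10 μg of empty pcDNA3 plasmid (6 Control muscles), and that of the other leg received 10 μg of plasmid carrying the full-length human long noncoding RNA *FRAIL1* (6 *FRAIL1* muscles). Plasmids were delivered by electroporation after hyaluronidase, and muscles were taken at day 7. Both groups therefore carried plasmid DNA and had been electroporated, and no muscle without either was analysed here, so the level that these steps themselves give cannot be told apart from the resting level. A transfected muscle also holds fibers and other cells without plasmid, and *FRAIL1*, a human RNA, has no row among the mouse genes of the table.

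Interferons are secreted proteins by which cells warn each other of foreign nucleic acid. Type I interferons act through the receptor of *Ifnar1* and *Ifnar2* and a transcription factor complex with Stat2 and Irf9, which binds the interferon-stimulated response element (ISRE) in front of its target genes. Interferon gamma acts through *Ifngr1* and *Ifngr2* and on genes with a gamma-activated site (GAS), and induces guanylate-binding proteins, immunity-related GTPases and antigen presentation most strongly. Sensors of RNA and DNA inside the cell, some of which are themselves interferon-stimulated, start the production of type I interferons.

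*FRAIL1* and Control muscles did not differ past the test's threshold in any of the 37 genes. Of the 37, 25 had a higher and 12 a lower mean in *FRAIL1* muscles, and the log2 fold changes had a median of 0.11 and ranged from -0.85 for *Gbp7* to 0.47 for *Oasl1*. In edgeR's quasi-likelihood test, with p-values adjusted over all genes tested by the Benjamini-Hochberg method, 0 members had an adjusted p-value under 0.05, against 974 of 15502 genes (6.28%) over the whole table. At an unadjusted p-value under 0.05 there were 4 members, *Ddx58* and *Trim25* with higher means and *Gbp7* and *Gbp3* with lower means, where all genes gave 27.7%. limma voom called 0 members among 1756 genes over the whole table, and DESeq2 called 1, *Gbp7*, among 2154. Over all genes tested, 51.6% had a log2 fold change above 0, and the median was 0.0096. The values of the groups overlapped for all 37 members, while 4.88% of all genes tested did not overlap. A p-value that misses the threshold does not show that levels were alike, and the intervals give the sizes that the data leave: 29 of the 37 had a 95% interval within a 2-fold change either way, and the bounds farthest from 0 were -1.44 for *Gbp7* and 1.08 for *Mx1* on the log2 scale. The median of the members was 0.032 without Control muscle 6 and 0.21 without *FRAIL1* muscle 3, and without the latter *Ddx58* passed the threshold (adjusted p = 0.0209, edgeR). In that fit 2110 genes passed over the whole table, with *Ddx58* the 1 member among them.

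**Figure D1:**
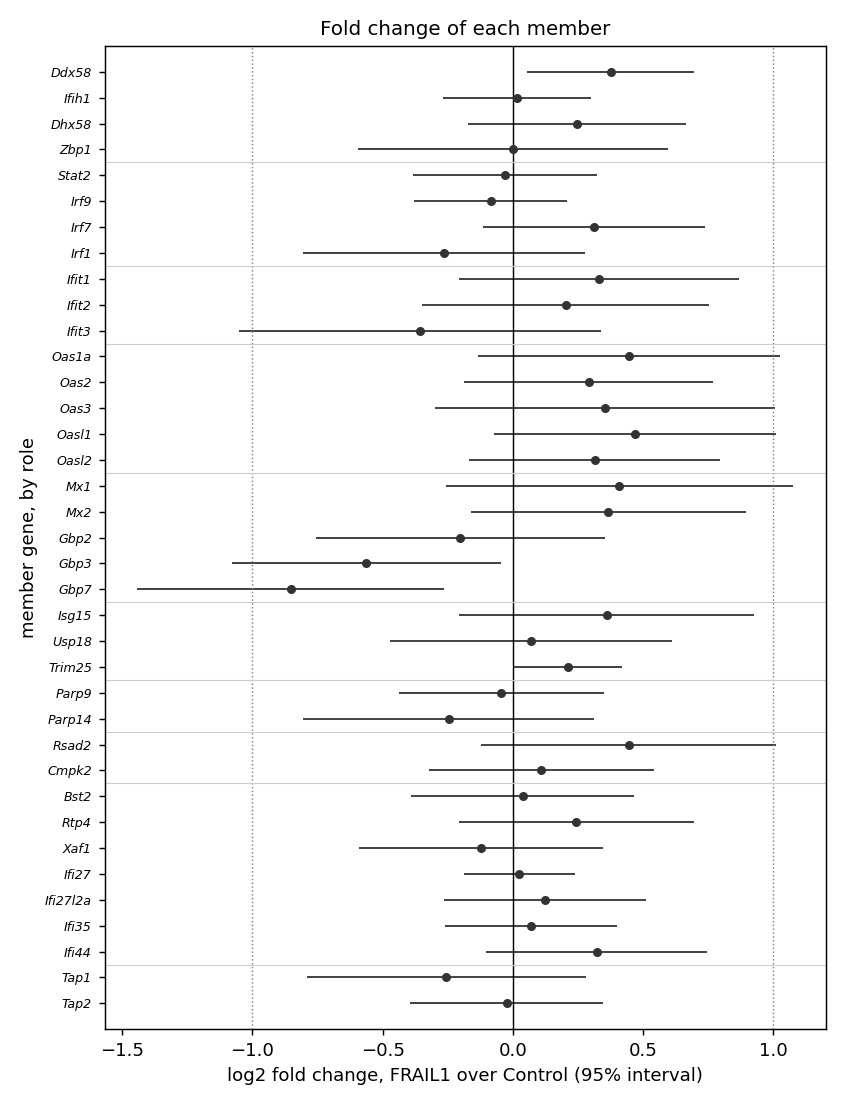
Log2 fold change of each of the 37 members, *FRAIL1* over Control, with its 95% interval (n = 6 muscles a group, edgeR), grouped by role between grey lines. Dotted lines mark a 2-fold change; the intervals of *Ddx58* and *Trim25* lie above 0 and those of *Gbp7* and *Gbp3* below 0.

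Total counts were 45018389 to 59309210 in Control and 44848322 to 60527385 in *FRAIL1* muscles. The member with the fewest counts, *Mx2*, had 2132 over the 12 muscles. Values below are CPM, the counts of a gene relative to the sum of its library in units of 1000000, after scaling between libraries. RNA came from whole muscle, in which fewer cells of a type and less RNA per cell cannot be told apart. Per kilobase of annotated exon, the highest Control means were those of *Bst2* (71.3 CPM per kb), a membrane protein that tethers budding virus particles, *Ifi27* (64.5), a protein of the mitochondrial and nuclear membranes, and *Ifit3* (63.7), with the guanylate-binding proteins *Gbp2* (43.9) and *Gbp7* (41.6) next. *Mx2* was lowest, at 0.844 CPM per kb.

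The members differed between muscles of the same group more than most genes did, and they did so together. The SD between the 6 muscles, on the log2(CPM + 0.5) scale, had a median over members of 0.379 in Control and 0.464 in *FRAIL1* muscles. Over all genes tested it was 0.156 and 0.184, and over the 10084 genes within the members' range of CPM it was 0.124 and 0.150. All 37 members exceeded the median of all genes in Control muscles and 36 did in *FRAIL1* muscles. Without *FRAIL1* muscle 3 the members' median in that group was 0.327, against 0.179 for all genes. The most variable members were *Oas3* in Control (SD 0.576) and *Ifit3* in *FRAIL1* muscles (0.685), and the least variable were *Trim25* (0.177) and *Ifi27* (0.179), respectively.

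*FRAIL1* muscle 3 had the lowest value of its group for 37 of 37 members. In the Control group the lowest value was that of muscle 6 for 22 members and of muscle 2 for the other 15. Over all genes tested, *FRAIL1* muscle 3 was lowest for 20.7%, and Control muscles 2 and 6 for 11.9% and 17.9%. Relative to each gene's group median, the median over members was -0.88 in *FRAIL1* muscle 3, -0.61 in Control muscle 6 and -0.48 in Control muscle 2, on the log2 scale. At the upper end, *FRAIL1* muscle 4 was highest of its group for 23 members and *FRAIL1* muscle 6 for 10, while the highest Control value was spread over muscles 1 (16 members), 5 (10), 4 (7) and 3 (4). Among the 107 tested genes of the pathway that are not members, *FRAIL1* muscle 3 was lowest for 89 and Control muscle 2 or 6 for 95. Of 13 macrophage and monocyte markers, *FRAIL1* muscle 3 was lowest for 9, Control muscle 6 for 11 and Control muscle 2 for 0. Of 8 myofiber markers none of these muscles was lowest for any. The summed T, NK and B cell markers were also lowest in Control muscle 6 and *FRAIL1* muscle 3. The summed plasmacytoid dendritic cell markers, which include the member *Bst2*, were lowest in Control muscle 2 and *FRAIL1* muscle 3. The summed neutrophil markers were lowest in Control muscle 6 and *FRAIL1* muscle 5. The part of macrophages and other immune cells in this pattern was not tested.

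**Figure D2:**
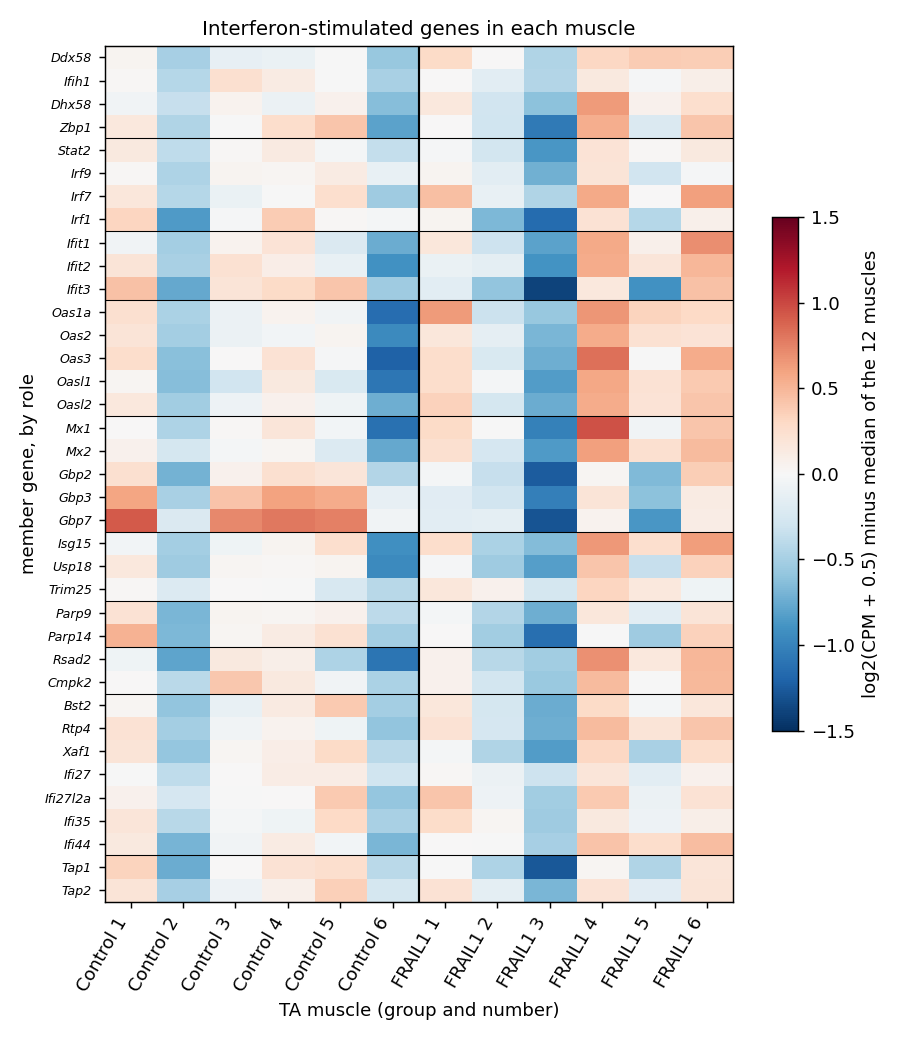
Level of the 37 members in each of the 12 muscles, as log2(CPM + 0.5) minus the gene's median over the 12 muscles (color scale), with genes in rows by role and muscles in columns by group and number. *FRAIL1* muscle 3 and Control muscles 2 and 6 appear blue for nearly every gene, with a median over members of -0.88, -0.48 and -0.61 from the group median, and the rows of *Gbp3* and *Gbp7* are red in Control muscles 1, 3, 4 and 5.

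Promoter windows of 25 of the 37 members were matched in RefSeq (GRCm38.p6), each from 250 bases before to 50 after the transcription start. The ISRE core was searched as GAAA, any 2 bases and GAAA, on either strand, and was present in 13 of the 25 (52%), against 3.44% of 32851 windows and 3.91% of the 11778 tested genes with a window. The GAS core, TTCNNNGAA, which reads alike on both strands, was present in 6 of the 25 (24%), against 8.30% of windows. The members with an ISRE core were *Ddx58*, *Ifih1*, *Stat2*, *Ifit1*, *Ifit3*, *Oas1a*, *Oas3*, *Gbp2*, *Gbp3*, *Gbp7*, *Isg15*, *Rsad2* and *Bst2*. Their median log2 fold change was 0.04 and 8 of 13 had a higher *FRAIL1* mean, and the 12 members without the core had a median of 0.16 with 8 of 12 higher. Higher and lower means thus occurred both with and without the core, in members of which none passed the threshold. In *Ddx58* and *Ifih1* no match lay wholly before the start. Whether the core bears on the direction of the means was not tested. The following 120 bases lie directly before the start, 5′ to 3′ on the strand of the gene, with every match to the ISRE core in capitals. They are shown for 3 antiviral genes with higher and 2 guanylate-binding protein genes with lower *FRAIL1* means, all of which hold the core.
*Isg15*, chr4:156200819-156200938, minus strand: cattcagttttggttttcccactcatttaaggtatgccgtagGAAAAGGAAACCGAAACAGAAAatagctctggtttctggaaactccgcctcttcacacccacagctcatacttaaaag
*Ifit1*, chr19:34640769-34640888, plus strand: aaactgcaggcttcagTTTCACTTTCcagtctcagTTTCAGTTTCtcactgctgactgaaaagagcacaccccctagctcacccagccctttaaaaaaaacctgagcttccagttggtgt
*Rsad2*, chr12:26456453-26456572, minus strand: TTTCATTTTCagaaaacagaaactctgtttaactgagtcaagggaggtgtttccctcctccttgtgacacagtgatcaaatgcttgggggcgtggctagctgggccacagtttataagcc
*Gbp2*, chr3:142620543-142620662, plus strand: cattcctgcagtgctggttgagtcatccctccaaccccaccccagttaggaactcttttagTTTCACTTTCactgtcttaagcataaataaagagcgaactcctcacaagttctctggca
*Gbp7*, chr3:142530216-142530335, plus strand: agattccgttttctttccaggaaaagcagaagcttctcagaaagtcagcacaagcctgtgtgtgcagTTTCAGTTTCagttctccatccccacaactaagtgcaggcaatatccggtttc
In the *Isg15* stretch 3 overlapping matches begin 78 bases before the start, in *Ifit1* 2 separate matches begin 104 and 85 bases before it, and in *Gbp2* and *Gbp7* a single match begins 59 and 53 bases before it. The match of *Rsad2* begins 120 bases before the start. A match of letters is a description and not a measured binding site.

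The 3 guanylate-binding proteins had the lowest fold changes of the dynamin-like GTPases. These are large GTPases that coat and disrupt membranes of intracellular pathogens, and *Gbp7*, *Gbp3* and *Gbp2* all lie on chromosome 3 of GRCm38 (142530336 to 142550151, 142560016 to 142573213 and 142620663 to 142638008). *Gbp7* was at 137, 266 and 302 CPM (lowest, median, highest) in Control and at 64.5, 143 and 172 CPM in *FRAIL1* muscles. Control muscles 1, 3, 4 and 5 were above every *FRAIL1* muscle and Control muscles 2 and 6 were within the *FRAIL1* range, so the groups overlapped. The log2 fold change of *Gbp7* was -0.85 (95% interval -1.44 to -0.26, adjusted p = 0.0745 by edgeR with Benjamini-Hochberg adjustment). By DESeq2 its adjusted p was 0.0177, and over all alternatives it lay between 0.0177 and 0.343.

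*Gbp3* was at 62.0, 123 and 133 CPM in Control and at 42.7, 74.4 and 99.8 CPM in *FRAIL1* muscles. As with *Gbp7*, Control muscles 1, 3, 4 and 5 lay above all *FRAIL1* muscles and Control muscles 2 and 6 did not (log2 fold change -0.56, interval -1.08 to -0.05, adjusted p = 0.149, edgeR). *Gbp2* differed less, with means of 110 ± 27.9 CPM in Control and 96.1 ± 34.7 CPM in *FRAIL1* muscles (SD, n = 6, log2 fold change -0.20). Of the *Gbp7* exons 11.3% are shared with the annotated gene *Gm43802* on the same strand. The authors counted reads that map uniquely to annotated genes, so reads there may be missing from its counts.

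The other pair of dynamin-like GTPases, *Mx1* and *Mx2*, had higher *FRAIL1* means. *Mx2* was at 1.84, 3.19 and 3.66 CPM in Control and at 1.71, 4.22 and 5.60 CPM in *FRAIL1* muscles, with the lowest *FRAIL1* muscle below the lowest Control muscle (log2 fold change 0.37, adjusted p = 0.352, edgeR). *Mx1* had a log2 fold change of 0.41 and an interval from -0.26 to 1.08. Matches in *Mx1* cover 34.0% of the *Mx2* transcript (95% identity or more, best match 96.1%), so the counts of both may be incomplete.

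The sensors bind foreign nucleic acid in the cell and all 4 had higher *FRAIL1* means, by 0.00 to 0.38 on the log2 scale. *Ddx58*, which encodes the RNA helicase RIG-I and lies on chromosome 4 from 40203777 to 40239825, was at 11.2, 15.6 and 17.3 CPM in Control and at 12.2, 20.8 and 22.0 CPM in *FRAIL1* muscles. *FRAIL1* muscles 1, 4, 5 and 6 lay above all Control muscles, whereas *FRAIL1* muscles 2 and 3 did not. Its log2 fold change was 0.38 (interval 0.06 to 0.70, adjusted p = 0.124, edgeR), and over the alternatives its adjusted p lay between 0.0154 and 0.282. Without *FRAIL1* muscle 3 the fold change of *Ddx58* was 0.48, and without both muscles numbered 3, a choice made after seeing the data, it was 0.49 (adjusted p = 0.0415, edgeR).

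The other RNA helicases of this family, *Ifih1* (MDA5) and *Dhx58* (LGP2), had log2 fold changes of 0.01 and 0.25. *Zbp1*, a sensor of Z-form nucleic acid that can start cell death, was at 13.5, 25.4 and 32.3 CPM in Control and at 11.3, 22.5 and 35.3 CPM in *FRAIL1* muscles, with a log2 fold change of 0.00 (interval -0.60 to 0.60). The *FRAIL1* range covered the whole Control range, with *FRAIL1* muscle 3 below it and *FRAIL1* muscles 4 and 6 above it.

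Among the transcription factors, 1 of 4 had a higher *FRAIL1* mean. *Irf7*, which amplifies type I interferon production, was at 57.9, 80.8 and 99.9 CPM in Control and at 61.3, 99.4 and 129 CPM in *FRAIL1* muscles. *FRAIL1* muscles 1, 4 and 6 lay above all Control muscles and the other *FRAIL1* muscles did not (log2 fold change 0.31, interval -0.11 to 0.74, adjusted p = 0.323, edgeR). *Stat2* and *Irf9*, parts of the ISRE-binding complex, had log2 fold changes of -0.03 and -0.09. *Irf1*, which interferon gamma induces directly, had one of -0.26 with an interval from -0.80 to 0.28.

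The 2-5A synthetase family had higher *FRAIL1* means for 5 of 5 members, with a median log2 fold change of 0.35, and none passed the threshold. *Oas1a*, *Oas2* and *Oas3* make the oligoadenylate that activates the ribonuclease RNase L, and *Oasl1* and *Oasl2* encode related proteins. *Oasl1* (chromosome 5, 114923143 to 114937911) was at 4.34, 8.09 and 10.9 CPM in Control and at 5.26, 11.6 and 14.9 CPM in *FRAIL1* muscles. Here *FRAIL1* muscles 1, 4, 5 and 6 lay above all Control muscles and *FRAIL1* muscles 2 and 3 did not (log2 fold change 0.47, interval -0.07 to 1.01, adjusted p = 0.240, edgeR).

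*Oas1a* was at 3.51, 7.91 and 9.97 CPM in Control and at 5.47, 10.5 and 13.5 CPM in *FRAIL1* muscles, with a log2 fold change of 0.45 and an adjusted p of 0.298 (edgeR). *Oasl2*, the most abundant of the family by CPM, was at 21.3, 33.9 and 39.8 CPM in Control and at 21.1, 43.2 and 52.6 CPM in *FRAIL1* muscles (log2 fold change 0.31, adjusted p = 0.382, edgeR). In each of these genes the lowest muscle of the *FRAIL1* group was muscle 3 and that of the Control group was muscle 6. *Oas2* and *Oas3* had log2 fold changes of 0.29 and 0.35. Without *FRAIL1* muscle 3 the median of the family was 0.49, and again 0 of 5 passed the threshold. Matches in *Oas1g* cover the whole *Oas1a* transcript (95% identity or more, best match 97.6%), so its counts may be incomplete.

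**Figure D3:**
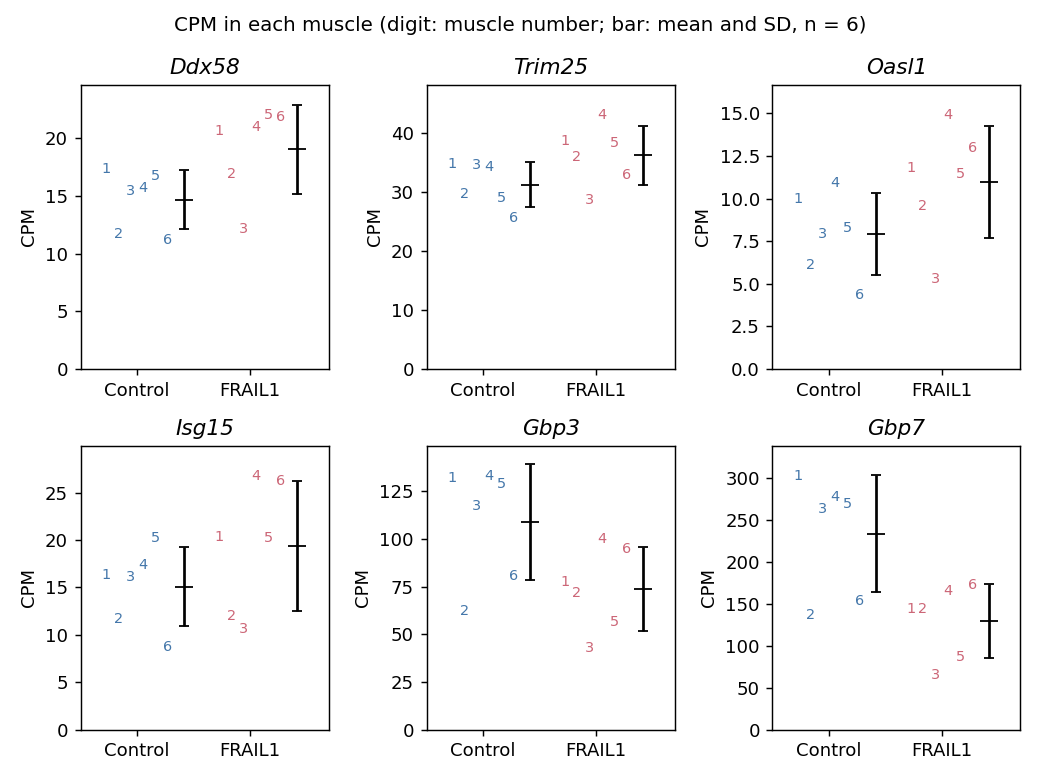
CPM of 6 members in each muscle, with the muscle's number as the symbol and the group's mean and SD (n = 6) as a bar beside it. *FRAIL1* muscle 3 is lowest of its group in all 6 panels, and in the panel of *Gbp7* Control muscles 1, 3, 4 and 5 lie at 263 to 302 CPM, above every *FRAIL1* muscle.

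The IFIT proteins bind viral RNA at its 5′ end and hinder its translation. *Ifit3* was at 61.5, 125 and 143 CPM in Control and at 40.0, 82.0 and 143 CPM in *FRAIL1* muscles, with a log2 fold change of -0.36 (interval -1.05 to 0.34). *Ifit1* and *Ifit2* had log2 fold changes of 0.33 and 0.20, so the family members had means of opposite direction. Matches in *Ifit3b* cover 97.4% of the *Ifit3* transcript (95% identity or more, best match 97.8%), and reads of the pair are uncertain.

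*Isg15* encodes a ubiquitin-like protein that is attached to other proteins, *Usp18* removes it, and *Trim25* is a ubiquitin ligase that activates RIG-I. *Isg15* was at 8.67, 16.2 and 20.2 CPM in Control and at 10.6, 20.2 and 26.7 CPM in *FRAIL1* muscles (log2 fold change 0.36, interval -0.21 to 0.93, adjusted p = 0.394, edgeR). *Trim25* (chromosome 11, 88999403 to 89020294) was at 25.6, 32.0 and 34.7 CPM in Control and at 28.7, 37.2 and 43.1 CPM in *FRAIL1* muscles. *FRAIL1* muscles 1, 2, 4 and 5 lay above every Control muscle, and the log2 fold change was 0.21 with an adjusted p of 0.173 (edgeR). *Usp18* had a log2 fold change of 0.07. Matches in the annotated gene *AC151275.1* cover 63.8% of the *Isg15* transcript (95% identity or more, best match 95.2%).

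*Rsad2*, or viperin, which makes a nucleotide that ends viral RNA chains, was at 23.3, 42.3 and 56.0 CPM in Control and at 35.0, 54.9 and 81.9 CPM in *FRAIL1* muscles (log2 fold change 0.45, interval -0.12 to 1.01, adjusted p = 0.287, edgeR). *FRAIL1* muscles 4, 5 and 6 lay above all Control muscles. *Cmpk2*, its neighbor on chromosome 12 and a mitochondrial nucleotide kinase, had a log2 fold change of 0.11. The ADP-ribosyltransferases had lower *FRAIL1* means for 2 of 2: *Parp14* was at 56.8, 95.6 and 131 CPM in Control and at 41.1, 76.8 and 115 CPM in *FRAIL1* muscles (log2 fold change -0.25), and *Parp9* had -0.04. Likewise *Tap1* and *Tap2*, which together carry peptides to MHC class I, had log2 fold changes of -0.25 and -0.02. *Tap1* was at 58.2, 106 and 124 CPM in Control and at 40.2, 84.4 and 111 CPM in *FRAIL1* muscles, with Control muscles 1, 4 and 5 above every *FRAIL1* muscle and *FRAIL1* muscle 3 below every Control muscle. Exons of *Tap2* overlap those of *Gm15821* and *Gm20496* over 18.5% of their length, and those of *Parp9* overlap *Dtx3l* over 9.40%.

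Of the 7 other interferon-induced proteins, 6 had higher *FRAIL1* means, none past the threshold. *Ifi44* was at 5.55, 9.0 and 10.3 CPM in Control and at 6.46, 10.3 and 13.0 CPM in *FRAIL1* muscles (log2 fold change 0.32, adjusted p = 0.305, edgeR). *Ifi27* was at 76.0, 98.9 and 107 CPM in Control and at 79.5, 96.7 and 113 CPM in *FRAIL1* muscles, with the narrow interval of -0.19 to 0.24 around a log2 fold change of 0.02. The log2 fold changes of the rest were 0.24 for *Rtp4*, 0.12 for *Ifi27l2a*, 0.07 for *Ifi35*, 0.04 for *Bst2* and -0.12 for *Xaf1*, a protein linked to cell death. Exon overlaps with other annotated genes cover 16.8% of *Ifi35* and 13.9% of *Rtp4*.

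Between muscles of the same number, the members moved together in some numbers and not in others. All 37 were higher in *FRAIL1* than in Control muscle 2 (median difference 0.26 in log2(CPM + 0.5)) and in muscle 6 (0.93), and all 37 were lower in *FRAIL1* muscle 3 than in Control muscle 3 (-0.74). For number 4, 30 were higher (median 0.33), and for numbers 1 and 5 the members divided into 19 higher and 18 lower, and 16 higher and 21 lower. The median difference over all genes tested lay between -0.0086 and 0.012 for the 6 numbers. Numbers 2 and 6 are those of the Control muscles in which the members were low, and number 3 is that of the low *FRAIL1* muscle. No member was higher in all 6 numbers or in fewer than 2. The 10 members higher in 5 of 6 were *Ddx58*, *Dhx58*, *Ifit1*, *Oas1a*, *Oasl1*, *Oasl2*, *Mx2*, *Trim25*, *Rsad2* and *Cmpk2*. The 7 members higher in 2 of 6 were *Irf1*, *Ifit3*, *Gbp2*, *Gbp3*, *Gbp7*, *Parp14* and *Tap1*, and in each of these the higher numbers were 2 and 6. *Gbp7* had differences of -1.07, 0.07, -2.02, -0.74, -1.62 and 0.17 for numbers 1 to 6, and *Isg15* had 0.30, 0.04, -0.58, 0.61, 0.00 and 1.54.

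**Figure D4:**
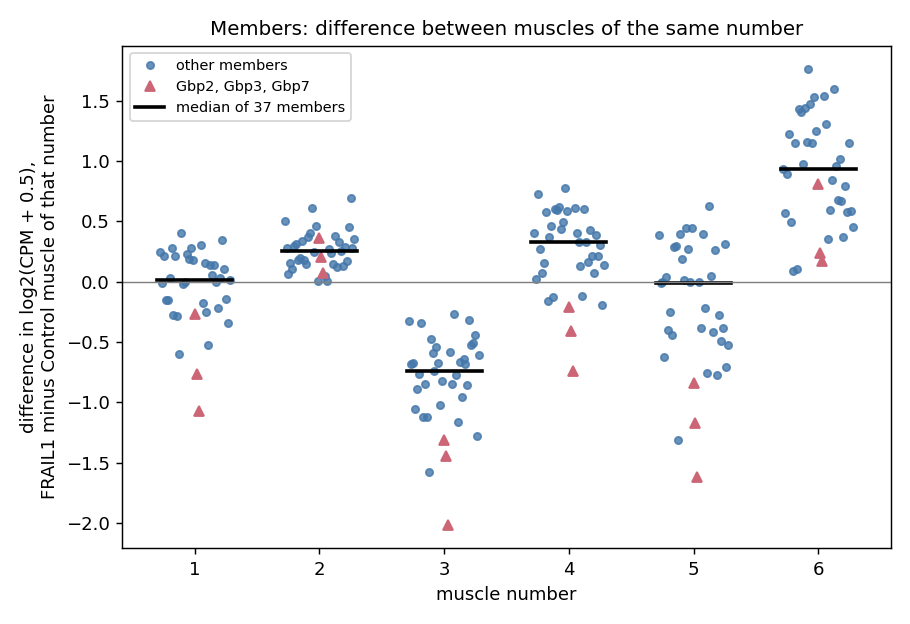
Difference of each of the 37 members between the *FRAIL1* and the Control muscle of the same number, in log2(CPM + 0.5), for numbers 1 to 6, with the median as a bar and *Gbp2*, *Gbp3* and *Gbp7* as triangles. All points lie above 0 for numbers 2 and 6 and below 0 for number 3, with medians of 0.26, 0.93 and -0.74.

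The rest of the interferon pathway was read from 130 further genes, of which 107 were tested. Of these, 1 rose and 2 fell past the threshold in the same edgeR test (Benjamini-Hochberg adjusted), where 4.43% of all genes rose and 1.85% fell. The riser was *Tlr7*, an endosomal sensor of single RNA strands, at 1.60, 2.26 and 2.62 CPM in Control and 1.99, 4.35 and 4.58 CPM in *FRAIL1* muscles (log2 fold change 0.83, adjusted p = 0.0257, edgeR). *FRAIL1* muscle 3 was again lowest, within the Control range, and the other *FRAIL1* muscles lay above all Control muscles. *Jak2*, a kinase of the interferon gamma receptor and of many other receptors, fell from 68.5, 81.1 and 98.8 CPM to 35.0, 60.2 and 66.8 CPM, without overlap of the groups (log2 fold change -0.51, adjusted p = 0.0445, edgeR). *Ifitm1*, a membrane protein that blocks virus entry, fell without overlap from 0.790, 1.30 and 1.69 CPM to 0.486, 0.636 and 0.763 CPM (log2 fold change -0.98, adjusted p = 0.0196, edgeR). It was the 1 of 5 tested *Ifitm* genes with a lower mean. The other 4 had higher means, and the median log2 fold change of the 5 was 0.13. *Tlr7* lost its call without Control muscle 3, 5 or 6 or *FRAIL1* muscle 1 or 4 (adjusted p = 0.0504 to 0.0613), and *Jak2* lost it without any of Control muscles 1 to 5 or of *FRAIL1* muscles 1, 4 and 6 (0.0624 to 0.0923). *Ifitm1* kept it with any 1 muscle left out.

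The interferons themselves were scarcely counted. Of 21 ligand genes, 11, all of the *Ifna* family, had 0 counts in every muscle, which allows a level of up to 0.0705 CPM in Control muscle 5, the library in which this limit was highest (3 counts, scaled like the CPM, for counting error only). *Ifnb1* had 9 counts over the 12 muscles together. *Ifng* was the 1 ligand with enough counts to be tested, at 0.607, 1.24 and 2.14 CPM in Control and 0.514, 1.11 and 2.10 CPM in *FRAIL1* muscles (log2 fold change -0.11, interval -0.79 to 0.58). Its lowest muscles were those of the members too, Control muscle 2 and *FRAIL1* muscle 3.

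Receptors and their signaling proteins had means of both directions, 5 of 10 higher. *Ifnar1* and *Ifnar2* had log2 fold changes of 0.13 and 0.23, and *Ifngr1* and *Ifngr2* had 0.08 and -0.09, none past the threshold. *Jak1*, the kinase that these receptors share, was at 147, 175 and 185 CPM in Control and at 131, 151 and 159 CPM in *FRAIL1* muscles, with an adjusted p of 0.0718 (log2 fold change -0.21, edgeR). Other sensors and adaptors had higher means for 14 of 16. Besides *Tlr7* these include *Aim2*, a DNA sensor of the inflammasome, at 1.78, 2.32 and 3.59 CPM in Control and 2.06, 3.63 and 5.18 CPM in *FRAIL1* muscles (log2 fold change 0.52, adjusted p = 0.141, edgeR). *Tor3a*, an interferon-responsive ATPase, had a log2 fold change of 0.37 with an adjusted p of 0.110, and *Ifitm10* had 0.57 with 0.0569 (edgeR).

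Of 45 further interferon-stimulated genes tested, 20 had higher and 25 lower *FRAIL1* means, and none passed the threshold. MHC class I and immunoproteasome genes had lower means for 12 of 16 (median log2 fold change -0.20), inducible chemokines for 2 of 4 and MHC class II genes for 1 of 5, again with none past the threshold. *Socs1* and the other inhibitors gave 0 calls among 5.

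A grouping made after the values were seen put *Gbp2*, *Gbp3* and *Gbp7* beside the other guanylate-binding proteins and the immunity-related GTPases of the list, *Gbp4*, *Gbp5*, *Gbp6*, *Gbp9*, *Gbp10*, *Irgm1*, *Irgm2*, *Igtp*, *Iigp1* and *Ifi47*. Lower *FRAIL1* means were found in 13 of 13, from -0.85 to -0.07 with a median of -0.53, and 0 of 13 passed the threshold (lowest adjusted p = 0.0745, edgeR). *Gbp2*, *Gbp3* and *Gbp7*, already seen to be lower, count among the 13, and the lowest adjusted p is that of *Gbp7*. Over all genes tested 51.6% had a log2 fold change above 0. The summed level of the 13 was 2274 to 4949 CPM in Control and 1004 to 3754 CPM in *FRAIL1* muscles, with medians of 4188 and 2875. All 13 were higher in *FRAIL1* than in Control muscles 2 and 6, and all 13 were lower in muscles 1, 3 and 5. As they moved together between muscles, they are not 13 separate observations. Without *FRAIL1* muscle 3 their median was -0.38, with 12 of 13 lower.

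Markers of the cells that a muscle sample can hold moved with the groups to different extents. The myofiber markers were abundant in all muscles, at a sum of 132774 to 157974 CPM in Control and 101581 to 140876 CPM in *FRAIL1* muscles, and 7 of 8 had lower *FRAIL1* means, of which *Ckm* passed the threshold (adjusted p = 0.0482, edgeR) and lost it in 12 of 26 alternatives, among them 9 of the 12 that leave out a muscle. Of 13 macrophage and monocyte markers 11 had higher means, with a median log2 fold change of 0.59. None passed the adjusted threshold and 8 had an unadjusted p-value under 0.05 (edgeR), where all genes gave 27.7%. Their sum was 261 to 418 CPM in Control and 328 to 830 CPM in *FRAIL1* muscles, while the sum of the 37 members was 1120 to 2015 CPM in Control and 887 to 1968 CPM in *FRAIL1* muscles. The sum over T, NK and B cell markers was 36.9 to 68.2 CPM and 34.6 to 83.8 CPM. *Siglech*, the defining marker of plasmacytoid dendritic cells, was at 1.15 CPM or less in every muscle (log2 fold change 0.74, adjusted p = 0.153, edgeR). The 6 markers of that list, which include the member *Bst2*, all had higher means, with a median log2 fold change of 0.46. Of these 6, 4 had an unadjusted p-value under 0.05 (edgeR), where all genes gave 27.7%, and none passed the adjusted threshold. The neutrophil markers summed to 3.01 CPM or less in every muscle. Endothelial markers had lower means for 8 of 8, and *Tek* and *Vwf* fell past the threshold. *Tek* did so in all 26 alternatives, while *Vwf* (adjusted p = 0.0481, edgeR) lost the call in 13 of 26, among them 10 of the 12 that leave out a muscle. The fibro-adipogenic markers summed to 923 to 1760 CPM in Control and to 1868 to 4842 CPM in *FRAIL1* muscles, without overlap. The highest sum was that of *FRAIL1* muscle 5, and the next highest was 2314 CPM in *FRAIL1* muscle 1. Of these markers 5 of 7 had higher means and none passed the threshold. The collagens *Col1a1* (log2 fold change 1.04, adjusted p = 0.0522, edgeR) and *Col3a1* (0.82, adjusted p = 0.0671) did not overlap between groups, where 4.88% of all genes tested did not. These 2 collagens had the highest CPM of the list and made up most of its sum. Both were highest in *FRAIL1* muscle 5. Over the alternatives their log2 fold changes were 0.65 to 1.14 for *Col1a1* and 0.50 to 0.89 for *Col3a1*. *Dcn*, the next most abundant, had a log2 fold change of 0.02, and *Pi16* and *Dpp4* had -0.14 and -0.11. The *FRAIL1* muscle with the lowest sum of this list was again muscle 3, whereas the lowest Control sum was that of muscle 1. Satellite cell markers had higher means for 4 of 4, with sums of 7.73 to 16.1 CPM and 12.2 to 22.2 CPM and none past the threshold. The part of these cells in the members' levels was not tested.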

How the data were processed

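The deposited file holds whole-number counts per gene, which the authors made from paired-end poly(A) libraries with Trimmomatic, STAR 2.7.8a (mm10) and featureCounts 2.0.1, without normalization. Whether counting used strand is not given in the sources used here. Gene IDs were matched to RefSeq symbols of GRCm38.p6 for 25275 of 27179 genes, and the others held 0.280% of counts. Counts were filtered with filterByExpr, scaled with TMM and fitted with edgeR 4.0.16 in R 4.3.3 (quasi-likelihood F test, robust, group only), with Benjamini-Hochberg adjustment over 15502 genes and a threshold of 0.05. Alternatives were other scalings and filters, each muscle left out, a block for the muscle number, limma 3.58.1 and DESeq2 1.42.0. The fit was tested on simulated data. No library was a copy of another, since the lowest chi-square per degree of freedom within a group was 14.5. Copies were searched in GENCODE transcripts with BLAST 2.17.0 (95% identity over 300 bases).

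The members and the lists were chosen with earlier results of these data known. Per-muscle values were given for the 12 members with the smallest p-values, for the most abundant member of each role by CPM and for genes past the threshold with or without the block. The labels give samples of a group as replicates, so p-values measure the spread between these muscles.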

Additional observations from a re-analysis of the deposited data

How the results depend on the processing

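The median log2 fold change of the members stayed above 0 in all 26 alternatives, from 0.032 to 0.25, and 19 to 30 members had a higher *FRAIL1* mean. Of 962 member fold changes under alternatives 7 passed the threshold, and 58, over 11 members, had the other sign. The count of members past the threshold was 0 to 1 with a muscle left out. It was 1 without both muscles numbered 3 (*Ddx58*, with 961 of all genes past it), 1 with DESeq2 (*Gbp7*) and 1 with DESeq2 and the block (*Ddx58*). The count of all genes past the threshold was 364 without *FRAIL1* muscle 1, 400 to 537 without a Control muscle, 494 and 601 without *FRAIL1* muscles 4 and 6, 1579 without *FRAIL1* muscle 2 and 2110 without *FRAIL1* muscle 3. It was 1756 with limma voom and 2154 with DESeq2. The cause of these moves was not tested.

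The study put both plasmids in each mouse, but the labels do not say that a number marks a mouse. Deviations from the group means correlated by 0.254, 0.162, 0.282, 0.263, 0.0547 and 0.185 between muscles of numbers 1 to 6 (mean 0.200). The mean between different numbers was -0.0400. As deviations sum to 0 within a group, this value nearly follows from the other mean and is no separate baseline. Number 5 had the lowest correlation, and these values cannot tell whether its muscles are a pair. With the replicate block 2186 genes passed the threshold (14.1%), 0 of them members, and *Jak1*, *Aim2*, *Tor3a* and *Ifitm10* passed besides *Tlr7*, *Jak2* and *Ifitm1*. Of the markers, 6 of 13 of macrophages passed with it (*C1qa*, *C1qb*, *C1qc*, *Adgre1*, *Csf1r* and *Lyz2*, all higher), as did *Ckm*, *Myh4* and *Actn3* (lower), *Kdr*, *Tek* and *Vwf* (lower), and *Pax7*, *Myf5*, *Lair1* and *Cd4* (higher). Of the calls over all genes 1159 were higher and 1027 lower with the block, against 687 and 287 without it, and with DESeq2 and the block 1408 of 2829 were higher. With the block the count was 2305 without both muscles numbered 5 and, as above, 2829 with DESeq2. Without both muscles numbered 3, chosen after seeing the data, it was 2004 with the block and held 3 members, *Ddx58* (adjusted p = 0.0154), *Trim25* (0.0163) and *Oasl1* (0.0408).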
